A study of Mus musculus with 9 samples.

Results

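The genes described here are 38 genes of the response to amino acid shortage that is run by the transcription factor ATF4. They were chosen by name, from the gene symbols of the deposited table, and sorted by role into regulators, stress kinases and their phosphatase subunit, brakes on translation, amino acid transporters, enzymes of amino acid synthesis and a small remainder. The choice was made with earlier results of these data known, so the shares of members called are descriptions and not tests of the set. All 38 had a line among the 53170 named genes, and 35 passed the filter for testing, a mean of at least 0.5 FPKM (fragments per kilobase of gene, scaled to library size) over the 9 libraries. RNA came from wild-type RAW264.7 cells, a mouse macrophage-like line, grown in αMEM with serum. There were 3 libraries each of a blank control, of cells on a membrane labelled BMC, and of cells on that membrane stimulated by low-intensity pulsed ultrasound (LIPUS, the group BMC+LIPUS). The labels do not say what BMC stands for, for how long the cells were treated or what the control cells grew on, and ultrasound was not given to cells off the membrane in any group. Whether replicate libraries were grown as separate cultures is not stated, and the p-values therefore rest on the spread among these libraries alone, which may be technical.

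When an amino acid runs short, uncharged tRNA activates the kinase GCN2, and when the endoplasmic reticulum is stressed the kinase PERK is activated. Both phosphorylate the translation factor eIF2, which slows most protein synthesis while Atf4 mRNA is translated more. ATF4 then binds C/EBP-ATF response elements in genes for amino acid import, amino acid synthesis, tRNA charging and feedback on the response itself. ATF4 is controlled chiefly at translation, and mRNA counts do not measure that step.

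The response element gives the members one feature of sequence that can be read off directly, and the stretches that hold it are shown here because their genes include both the largest rise and one of the falls. Promoter windows from 250 bases before to 50 bases after each RefSeq start (build GRCm38.p6) were at hand for 32 of the 38 members. The letters TGATGNAA, searched on both strands, stood in the windows of 7 of these 32 genes (21.9%), against 1219 of 27025 genes (4.51%) in the whole promoter table. With the stricter letters TGATGCAA, which TGATGNAA includes, there were 5 member genes (15.6%) against 279 genes (1.03%). A match is a description of the window and not a site shown to be bound. Each line gives 30 bases of the gene's strand, 5′ to 3′, with the match in capitals. It reads TGATGNAA where it lies on the gene's strand and in reverse complement where it lies on the other.
Chac1 (chr2:119351038-119351067, plus strand, match starting at -193 from the start): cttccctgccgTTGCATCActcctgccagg
Nupr1 (chr7:126625562-126625591, minus strand, -110): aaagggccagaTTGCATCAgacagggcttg
Trib3 (chr2:152344028-152344057, minus strand, 14 bases after the start): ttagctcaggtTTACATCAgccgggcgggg
Slc1a4 (chr11:20332699-20332728, minus strand, -4): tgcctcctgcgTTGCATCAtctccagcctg
Asns (chr6:7693214-7693243, minus strand, -23): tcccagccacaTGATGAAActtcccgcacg
Pycr1 (chr11:120643833-120643862, minus strand, -103): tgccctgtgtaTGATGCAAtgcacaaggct
Vldlr (chr19:27216809-27216838, plus strand, -200): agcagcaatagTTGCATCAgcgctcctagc
The first 5 of these genes were called higher on the membrane, Pycr1 was called lower, and Vldlr had no counts in any library. Over all genes tested 17.2% were called higher and 18.8% lower. Members whose windows lack the letters were also called, among them Atf4, Ddit4 and Mthfd2 higher and Shmt1 and Eif2ak3 lower. No relation between the letters and the calls was tested. For Chac1, the member with the largest change, the first 220 bases of the window (chr2:119350992-119351211, plus strand) are shown in full with the same match in capitals.
Chac1 upstream: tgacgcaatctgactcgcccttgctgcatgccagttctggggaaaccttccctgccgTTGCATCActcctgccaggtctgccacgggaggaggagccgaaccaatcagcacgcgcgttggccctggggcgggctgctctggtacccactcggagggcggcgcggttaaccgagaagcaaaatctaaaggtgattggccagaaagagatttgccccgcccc

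Libraries held 12675417 to 16574322 counts over named genes, and 17035 to 17879 genes had at least 1 count. Mitochondrial genes took 3.46% to 4.05% of the counts. Of 10 macrophage markers 9 passed the filter, and their summed level was 6608 to 7387 FPKM in control, 7241 to 7992 in BMC and 7435 to 7680 in BMC+LIPUS. In BMC against control 3 of these 9 were called higher (Lyz2, Spi1 and Cd14, with Cd14 going from 623 to 1034 FPKM) and 3 lower (Cd68, Ptprc and Fcgr1), and their part in the results was not tested. Markers of other cell types were low. The 10 fibroblast and osteoblast markers summed to 0.8 to 1.01, 1.44 to 1.72 and 1.78 to 1.8 FPKM in the same order, with Col1a2, Col3a1, Pdgfra, Dcn and Lum at 0 counts in every library. The 7 lymphocyte markers summed to 0.87 to 1.05, 2.12 to 2.76 and 2.27 to 3.05 FPKM, nearly all of it Lck, with Cd3e, Ms4a1 and Ncr1 at 0. The 7 epithelial and endothelial markers reached at most 0.06 FPKM, and the 7 granulocyte and mast cell markers at most 1.44. The fibroblast and lymphocyte sums were thus higher in both membrane groups than in control, and their part in the results was not tested.

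On the BMC membrane, 5 of 6 regulators of the ATF4 response, 3 of the 4 tested translation brakes and a selection of its metabolic targets were called higher than in control, while several enzymes of the same pathways did not pass the test or fell. The largest rise was that of Chac1, the largest fall that of Shmt1. Of the 35 tested members 19 were called higher and 3 lower by edgeR's quasi-likelihood test at an adjusted p under 0.05. Over all 12011 genes tested, 36% were called, 17.2% higher and 18.8% lower. The libraries of the 2 groups did not overlap in FPKM in 24 members, 19 higher and 5 lower, against 46.5% of all genes, 17.1% higher and 29.4% lower. The median log2 change of the members was 0.25, beside 0.01 over all genes tested. With library totals in place of TMM (trimmed mean of M-values) scaling, 17 members were higher and 4 lower with a median of 0.19, and the calls over all genes moved from 2065 higher and 2253 lower to 1459 higher and 2762 lower. These are bulk libraries, in which more cells with a transcript and more transcript per cell cannot be told apart.

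**Figure D1:**
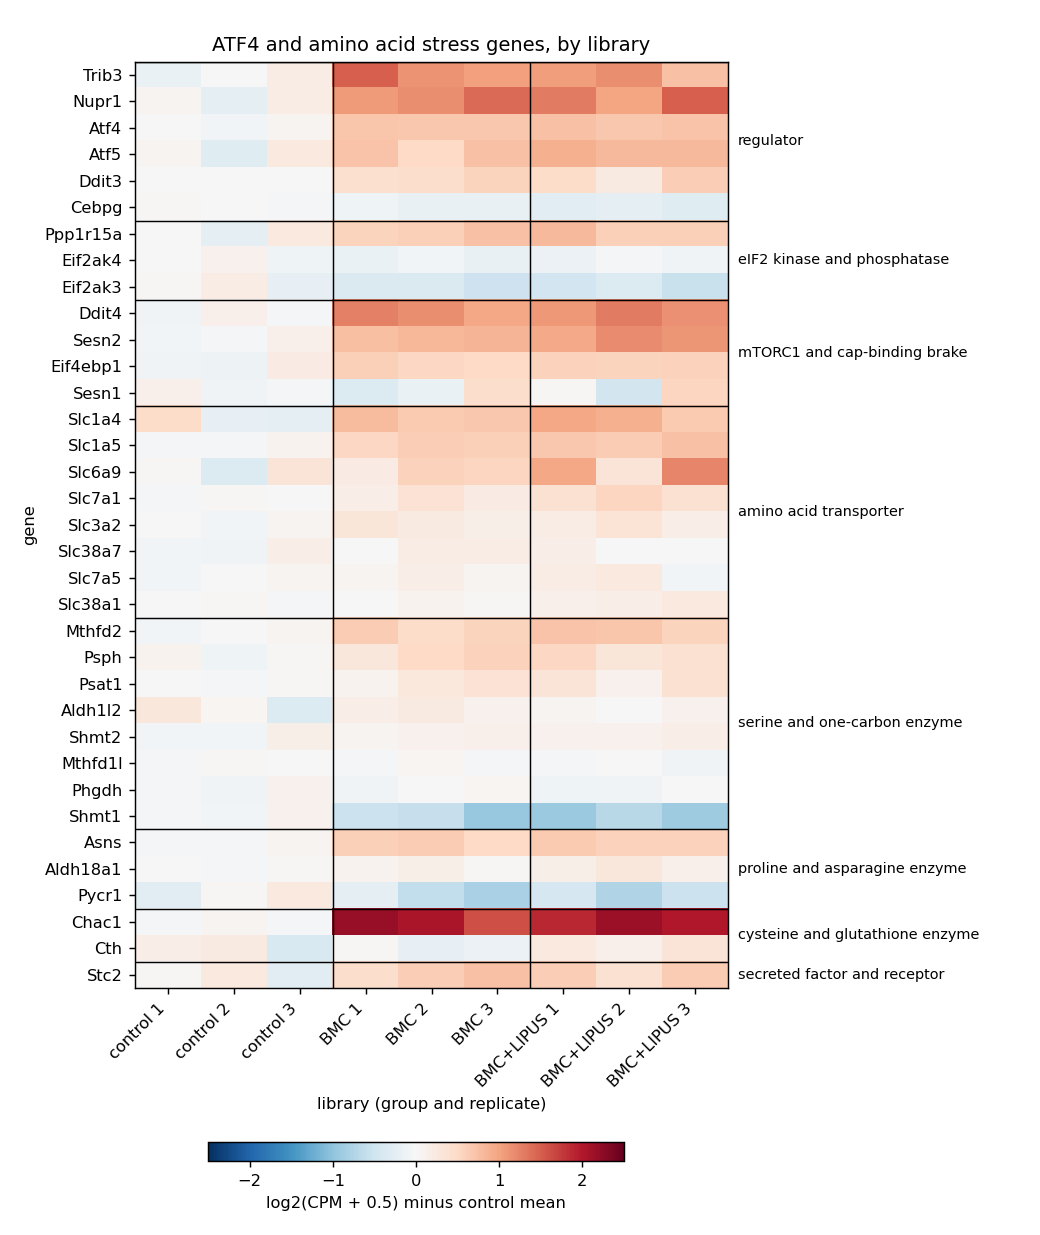
Heat map of the 35 tested members (rows, grouped by role) in the 9 libraries (columns); colour is log2(CPM + 0.5), with CPM from TMM-scaled library sizes, minus the mean of the 3 controls. Chac1 is the darkest row in all BMC and BMC+LIPUS libraries, while Shmt1 and Pycr1 are blue there.

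Atf4 itself stood at 117, 112 and 123 FPKM in the controls, at 185, 179 and 177 in BMC and at 188, 181 and 180 with BMC+LIPUS. It was among the most abundant members in every library, and the control values did not overlap with the others. The fitted log2 change from control to BMC was 0.68 (SE 0.055, adjusted p = 1.37e-07, edgeR). Atf5, a related factor that is also controlled by upstream reading frames in its mRNA, rose from 11.6 ± 2.21 to 17.4 ± 1.59 FPKM (SD, n = 3), a log2 change of 0.65 (edgeR adjusted p = 0.000412).

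Downstream regulators rose as well. Trib3, a pseudokinase that feeds back on ATF4, read 0.63, 0.74 and 0.86 FPKM in control, 2.42, 1.79 and 1.65 in BMC and 1.69, 1.89 and 1.30 with BMC+LIPUS. It was a low transcript, at 19 to 26 counts a library in control and 45 to 72 in BMC, and its log2 change of 1.46 had an SE of 0.247 (edgeR adjusted p = 0.000246). Nupr1, a small stress-induced chromatin protein, went from 5.81, 4.60 and 6.21 FPKM in control to 11.31, 12.02 and 14.15 in BMC, 2.36-fold higher (edgeR adjusted p = 5.40e-06). All its BMC libraries lay above all controls. Ddit3, which encodes the stress factor CHOP, rose from 4.53 ± 0.0513 to 6.11 ± 0.300 FPKM, a fold change of 1.41 (adjusted p = 0.0102, edgeR). Cebpg, the C/EBP partner of ATF4, was the exception among the 6 regulators. It read 12.95, 12.78 and 12.29 FPKM in control and 11.35, 10.60 and 10.54 in BMC, so that its groups did not overlap, but it missed the threshold at a log2 change of -0.16 (edgeR adjusted p = 0.0542). It was called lower in 7 of 19 other settings, among them library totals and the fit without control replicate 3 or without BMC+LIPUS replicate 2, which shares the estimate of spread.

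The upstream kinases did not rise at the RNA level. Eif2ak3, which encodes PERK, fell from 5.28, 5.94 and 4.43 FPKM in control to 3.90, 3.85 and 3.41 in BMC, 1.34-fold lower (log2 change -0.43, SE 0.106, edgeR adjusted p = 0.00498). Every BMC library lay below every control. Eif2ak4, which encodes GCN2, stood at 6.86 ± 0.515 and 5.95 ± 0.271 FPKM without overlap and was not called (log2 change -0.14, 95% interval -0.30 to 0.02, edgeR adjusted p = 0.155). Ppp1r15a, which encodes GADD34, the inducible subunit that brings a phosphatase to eIF2, rose from 7.20 ± 1.18 to 10.7 ± 0.594 FPKM, a fold change of 1.55 (adjusted p = 0.000363, edgeR).

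Of 4 tested genes that restrain mTORC1 or cap-dependent translation, 3 rose. Ddit4 (REDD1), an inhibitor of mTORC1, read 2.03, 2.44 and 2.12 FPKM in control and 5.46, 5.00 and 4.30 in BMC, a log2 change of 1.22 (SE 0.160, edgeR adjusted p = 2.35e-05). Sesn2, a leucine sensor that holds mTORC1 down, read 4.43, 4.51 and 5.10 FPKM in control, 7.73, 8.09 and 8.07 in BMC and 8.73, 10.37 and 9.51 with BMC+LIPUS. These 3 sets of values formed 3 steps without overlap, with a log2 change from control to BMC of 0.83 (SE 0.0941, edgeR adjusted p = 5.00e-06). Eif4ebp1, which encodes the repressor of the cap-binding factor, rose from 21.1 ± 2.49 to 29.3 ± 1.46 FPKM, a fold change of 1.45 (adjusted p = 8.37e-05, edgeR).

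The sestrins differed from each other. Sesn1 was the most abundant and was not called (log2 change 0.01, 95% interval -0.41 to 0.42, edgeR adjusted p = 0.985), and its libraries were spread widely. It read 38.43, 33.21 and 33.94 FPKM in control, 26.63, 29.89 and 44.84 in BMC, and 34.14, 24.62 and 47.69 with BMC+LIPUS. Replicate 3 of both membrane groups stood highest. Sesn3 was below the filter, at 0 to 6 counts a library.

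**Figure D2:**
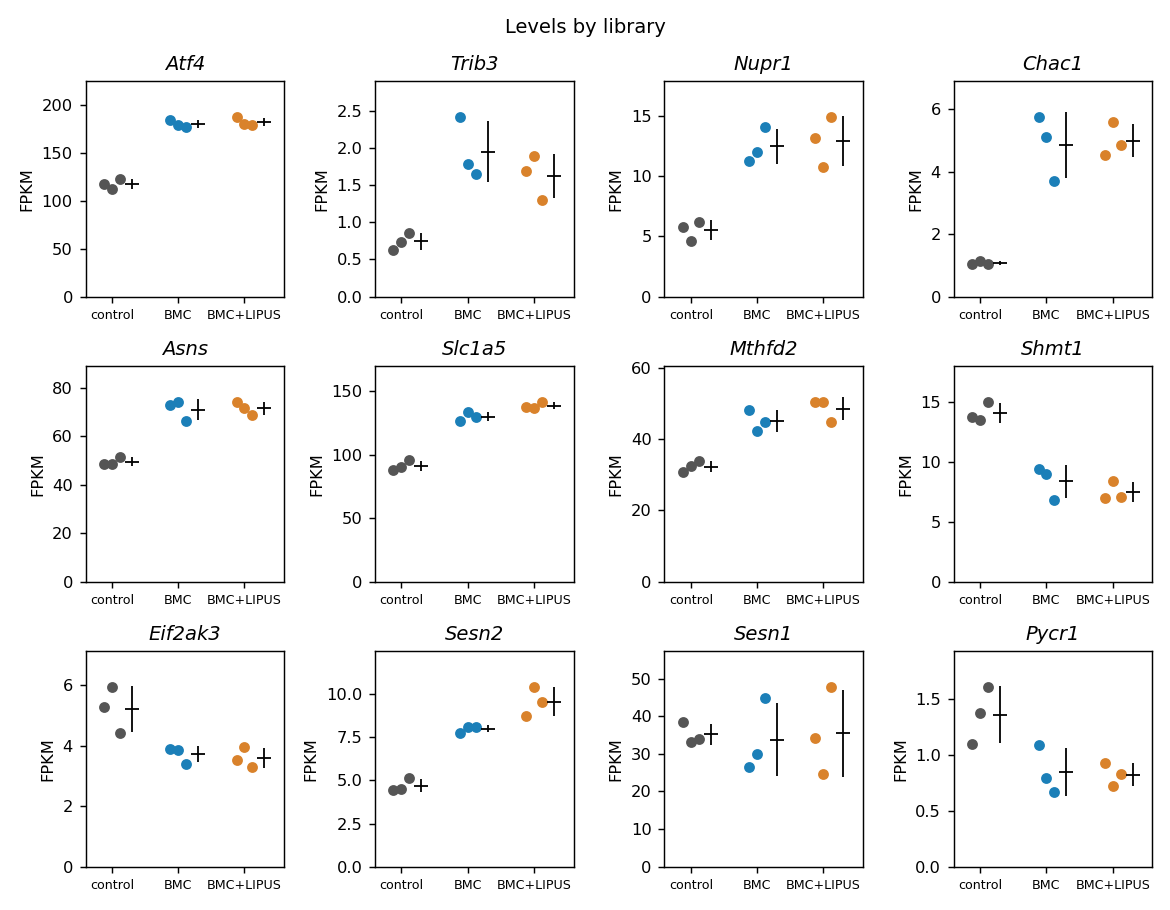
FPKM (vertical axes, from 0) of 12 members in each library; points are libraries, and the black dash and bar beside them are the group mean ± SD (n = 3). Atf4, Trib3, Nupr1, Chac1, Asns, Slc1a5, Mthfd2 and Sesn2 are higher in BMC than in control without overlap. Shmt1, Eif2ak3 and Pycr1 are lower without overlap, and Sesn1 overlaps in all groups.

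Amino acid transporters were raised in part. Of the 8, all of which were tested, 4 were called higher, 0 lower, and the median log2 change was 0.24. Slc1a5 (ASCT2), a carrier of glutamine and other neutral amino acids, was the most abundant, at 87.96, 90.02 and 95.72 FPKM in control and 126.47, 134.05 and 130.03 in BMC (log2 change 0.58, SE 0.0566, edgeR adjusted p = 1.18e-06). Slc1a4 (ASCT1), its relative for alanine, serine, cysteine and threonine, had the largest log2 change of the transporters, 0.76. It was a low transcript, however, at 1.12, 0.66 and 0.63 FPKM in control and 1.40, 1.25 and 1.25 in BMC (SE 0.221, edgeR adjusted p = 0.0134). The call was lost without control replicate 2 or without control replicate 3, where the adjusted p was up to 0.0696.

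Slc7a1, the cationic transporter for arginine and lysine, rose from 19.6 ± 0.410 to 22.3 ± 1.64 FPKM, a fold change of 1.19 (adjusted p = 0.00632, edgeR), a call lost with limma on log2(FPKM + 1). Slc3a2, the heavy chain shared by several exchangers, rose from 42.7 ± 1.85 to 47.6 ± 2.98 FPKM, a fold change of 1.16 (adjusted p = 0.0162, edgeR). The call of Slc3a2 was lost without control replicate 1, control replicate 2 or BMC replicate 1 and with library totals or limma, at an adjusted p of up to 0.184 over 19 settings. Its main partner for large neutral amino acids, the light chain Slc7a5 (LAT1), was not called, at 29.2 ± 1.40 and 29.9 ± 1.12 FPKM (log2 change 0.10, 95% interval -0.06 to 0.26). The glutamine transporters Slc38a1 and Slc38a7 were also not called, with intervals of -0.07 to 0.17 and -0.07 to 0.31. Slc6a9, the glycine transporter GlyT1, read 1.5, 1.14 and 1.83 FPKM in control, 1.64, 2.12 and 2.06 in BMC and 2.84, 1.79 and 3.33 with BMC+LIPUS. Its groups overlapped, and it was not called in BMC (log2 change 0.45, 95% interval -0.01 to 0.92, edgeR adjusted p = 0.124).

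Serine synthesis and one-carbon enzymes did not move as a block. Of 8 tested, 3 were called higher and 1 lower, with a median log2 change of 0.12. Along the pathway from a glycolytic intermediate to serine, the first enzyme, Phgdh, was not called, at 81.7 ± 4.81 and 77.7 ± 3.04 FPKM (log2 change -0.01, 95% interval -0.14 to 0.13). Psat1, the second, was called higher from 119 ± 2.96 to 134 ± 11.8 FPKM (log2 change 0.24, edgeR adjusted p = 0.0217). Its BMC libraries read 121.46, 135.37 and 144.92 FPKM, and the call was lost without control replicate 1 or 2 or BMC replicate 2 or 3 and with library totals or limma, at an adjusted p of up to 0.167. Psph, the last, rose from 7.16 ± 0.464 to 9.41 ± 0.849 FPKM, a fold change of 1.38 (adjusted p = 0.000936, edgeR).

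The next steps, which move a carbon from serine to folate, take place in the mitochondria and in the cytosol. Of the mitochondrial enzymes Shmt2, Mthfd2, Mthfd1l and Aldh1l2, Mthfd2 was called, at 30.76, 32.46 and 33.75 FPKM in control and 48.31, 42.27 and 44.86 in BMC (log2 change 0.55, SE 0.0656, edgeR adjusted p = 9.44e-06). Shmt2 stood at 119 ± 9.52 and 122 ± 1.46 FPKM and was not called (edgeR adjusted p = 0.230), although it was called higher without control replicate 3. Mthfd1l and Aldh1l2 were not called, with 95% intervals of -0.12 to 0.12 and -0.22 to 0.51. The cytosolic Shmt1 read 13.76, 13.55 and 15.03 FPKM in control, 9.39, 8.99 and 6.82 in BMC and 6.99, 8.44 and 7.09 with BMC+LIPUS. All membrane libraries lay below all controls, and it fell by 0.68 on the log2 scale (SE 0.103, edgeR adjusted p = 8.88e-05). Mthfd1, the cytosolic folate enzyme that is not among the 38 and is named after its values were seen, was also called lower, from 56.2 to 44.9 FPKM (log2 change -0.26, edgeR adjusted p = 0.00114).

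Asparagine and proline synthesis also parted. Asns, which makes asparagine from aspartate, read 48.35, 48.53 and 51.62 FPKM in control and 72.72, 74.02 and 66.13 in BMC, without overlap (log2 change 0.58, SE 0.060, edgeR adjusted p = 1.92e-06). Aldh18a1, the first enzyme of proline synthesis, was not called, at 24.7 ± 0.486 and 25.2 ± 1.15 FPKM (log2 change 0.09, 95% interval -0.04 to 0.22). Pycr1, the last, fell from 1.10, 1.38 and 1.61 FPKM in control to 1.09, 0.80 and 0.67 in BMC (log2 change -0.61, SE 0.219, edgeR adjusted p = 0.0393). It was a low transcript, at 34 to 60 counts a library in BMC, and the call was lost with DESeq2 and without control replicate 2 or 3 or BMC replicate 2 or 3, at an adjusted p of up to 0.146. Both Asns and Pycr1 have the response element letters shown above.

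Chac1, an enzyme that breaks down glutathione, read 1.03, 1.14 and 1.03 FPKM in control (23 to 31 counts a library), 5.76, 5.11 and 3.71 in BMC and 4.55, 5.59 and 4.85 with BMC+LIPUS. The lowest membrane library stood far above the highest control, and the log2 change was 2.25 (SE 0.207, edgeR adjusted p = 5.74e-07). The enzymes that make cysteine from homocysteine were scarce. Cth stood at 0.690 ± 0.192 and 0.590 ± 0.0700 FPKM and was not called (95% interval -0.77 to 0.41), and Cbs was below the filter at 15 to 33 counts a library. Stc2, a secreted glycoprotein induced by stress of the endoplasmic reticulum, rose from 3.75 ± 0.732 to 5.40 ± 0.502 FPKM (log2 change 0.58, edgeR adjusted p = 0.00181). The lipoprotein receptor gene Vldlr had 0 counts in all 9 libraries, and a count of 0 allows up to 0.181 to 0.237 CPM (counts scaled to library size) in a library at a floor of 3 counts, which covers counting error only.

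By role, the median difference of a library from the control mean, on the log2 CPM scale, was 0.59 to 0.71 over the 6 regulators in the BMC libraries, and -0.04 to 0.13 in the controls. Over the 4 translation brakes it was 0.67 to 0.68 in BMC and -0.08 to 0.05 in control, and over the 8 transporters 0.18 to 0.29 and -0.05 to 0.07. Over the 8 serine and one-carbon enzymes it was 0.08 to 0.16 in BMC and -0.06 to 0.05 in control. The medians over the 3 proline and asparagine enzymes overlapped, at 0.03 to 0.15 and -0.04 to 0.07, although Asns rose and Pycr1 fell without overlap. Those over the 3 genes of eIF2 kinases and phosphatase also overlapped, at -0.19 to -0.07 in BMC against -0.10 to 0.10 in control. Among these genes Ppp1r15a rose and Eif2ak3 fell, so neither of these medians describes each of its 3 genes. All these medians are descriptions of the libraries and were not tested.

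**Figure D3:**
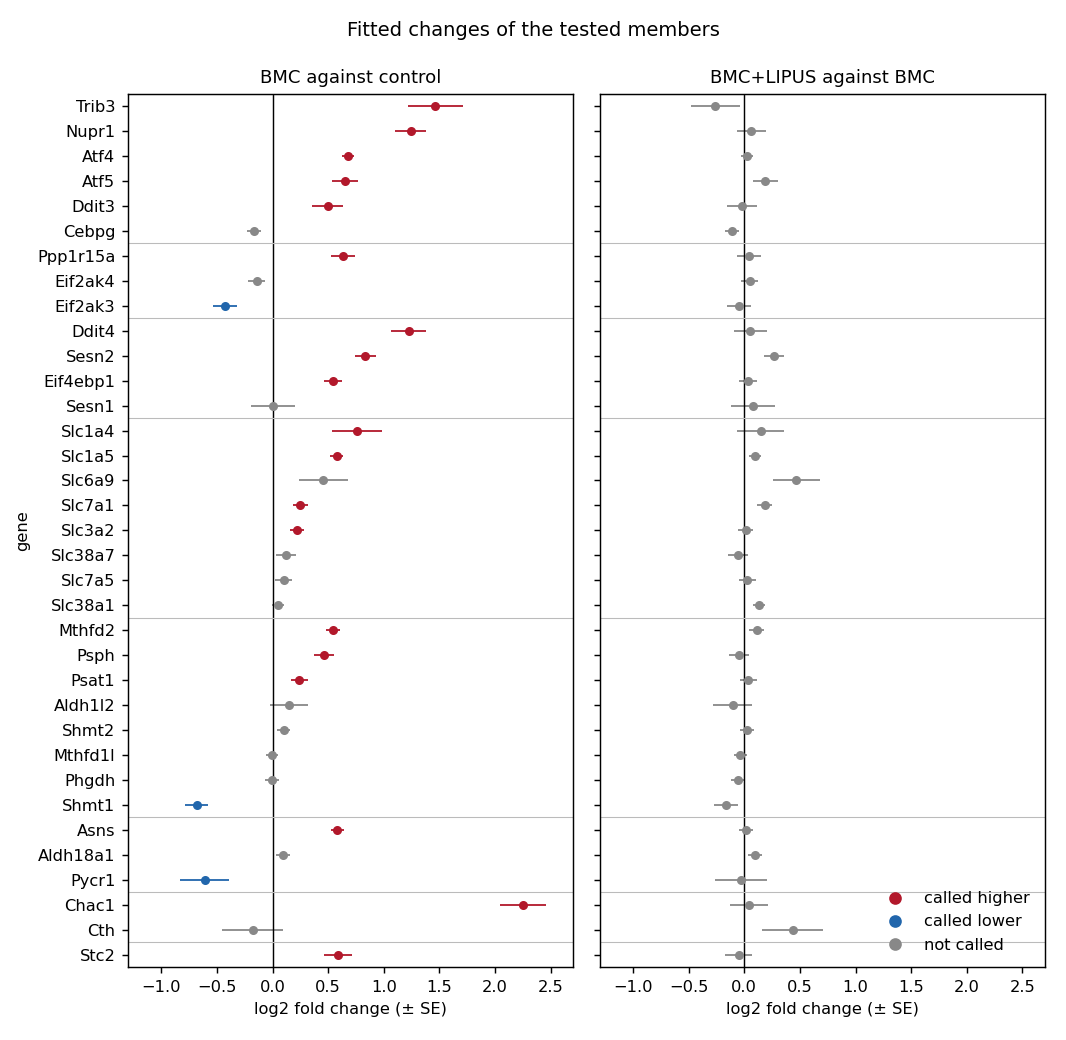
Fitted log2 fold changes (horizontal axis, points) with their SE (bars) for the 35 tested members, BMC against control on the left and BMC+LIPUS against BMC on the right; red is called higher, blue called lower, grey not called at an adjusted p of 0.05. The left panel has 19 red and 3 blue points, and all 35 points of the right panel are grey.

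The comparison of BMC+LIPUS with BMC asked what ultrasound added on the membrane, and none of the 35 tested members was called. EdgeR, DESeq2 and limma on log2(FPKM + 1) each called 0 of them, beside 13 of 12011 genes (0.108%) called by edgeR in all, 0.0916% higher and 0.0167% lower. At an unadjusted p under 0.05 there were 4 members, against 11.5% of all genes. They were Sesn2 (log2 change 0.26, 95% interval 0.08 to 0.45, edgeR adjusted p = 0.268), Slc7a1 (0.18, 0.04 to 0.32, edgeR adjusted p = 0.298), Slc38a1 (0.13, 0.02 to 0.25, edgeR adjusted p = 0.377) and Slc6a9 (0.47, 0.02 to 0.91, edgeR adjusted p = 0.420). The libraries of BMC and BMC+LIPUS did not overlap in 6 members, against 15.8% of all genes, 7.75% higher and 8.06% lower. Of these, Atf5, Sesn2, Slc1a5, Slc38a1 and Cth were higher and Cebpg lower.

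The intervals give the uncertainty of each fitted change from the spread among these libraries, which may be technical. They set no bound on an effect of ultrasound in separate cultures. For Atf4 the log2 change was 0.02 with a 95% interval of -0.09 to 0.14, for Asns 0.02 with -0.11 to 0.14, and for Mthfd2 0.11 with -0.03 to 0.25. For the low transcripts the intervals were wider, -0.32 to 0.40 for Chac1, -0.73 to 0.21 for Trib3 and -0.53 to 0.46 for Pycr1. The widest was that of Cth, -0.147 to 1.015. A p above the threshold does not show that the groups are alike.

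BMC+LIPUS against control shares its controls with the first comparison and its treated libraries with the second, so its values are not independent of either. Here 22 members were called higher and 4 lower, with 43% of all genes called, 21.1% higher and 21.9% lower, and the median log2 change of the members was 0.41 beside 0.01 over all genes. The libraries did not overlap in 20 members that were higher and 6 that were lower, against 50.9% of all genes, 19.6% higher and 31.3% lower. With library totals 19 members were higher and 4 lower, and the calls over all genes went from 2529 higher and 2631 lower to 1869 and 3204. Cebpg, Slc6a9, Slc38a1 and Aldh18a1 were called here but not in BMC against control. The test of that difference is BMC+LIPUS against BMC, in which none of these 4 was called. Slc6a9 had log2 changes of 0.45 in BMC and 0.92 in BMC+LIPUS (edgeR adjusted p = 0.00254 for the latter). Slc38a1 had 0.05 and 0.18, with edgeR adjusted p = 0.0131 for the latter. Aldh18a1 had 0.09 and 0.19, with edgeR adjusted p = 0.0204 for the latter, and Cebpg -0.16 and -0.27, with edgeR adjusted p = 0.00245.

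Among the members called in both, Sesn2 had a log2 change of 1.10 against control with ultrasound and 0.83 without, and Slc7a1 0.43 and 0.25. Chac1 had 2.29 and 2.25, Atf4 0.71 and 0.68, and Asns 0.60 and 0.58. Shmt1 was 1.79-fold lower in BMC+LIPUS and 1.61-fold lower in BMC, and Eif2ak3 1.39-fold and 1.34-fold lower. The calls against control in BMC+LIPUS of Aldh18a1, Slc38a1, Slc3a2, Psat1, Pycr1 and Ddit3 were lost in some settings. That of Ddit3 was lost without BMC+LIPUS replicate 3 (adjusted p = 0.0633). Those of Aldh18a1 and Slc3a2 were lost without control replicate 2, and that of Aldh18a1 also without control replicate 1 or BMC+LIPUS replicate 2. That of Slc38a1 was lost without BMC+LIPUS replicate 3, and that of Pycr1 without control replicate 2 or 3 or BMC+LIPUS replicate 2 or 3. The highest adjusted p over all settings was 0.198 for Aldh18a1, 0.137 for Slc38a1, 0.151 for Slc3a2, 0.0988 for Psat1 and 0.108 for Pycr1.

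Other genes of the pathway, outside the 38, were counted in 6 lists, whose shares of calls are to be read beside the 36% of all genes called in BMC against control. A further 14 genes of the eIF2 pathway were tested, namely subunits of eIF2 and its exchange factor, kinases, a phosphatase subunit and other factors. Of these, 6 were called higher and 0 lower (median log2 change 0.12). The other eIF2 kinase genes, Eif2ak1 and Eif2ak2, were not called (log2 changes 0.03 and -0.23). Eif2s2, the beta subunit of eIF2, rose 1.44-fold (edgeR adjusted p = 3.85e-06), Ppp1r15b, the constitutive phosphatase subunit, 1.30-fold, and Impact, an inhibitor of GCN2, 1.35-fold. Of 12 other basic leucine zipper factors 7 were called higher and 0 lower, with a median log2 change of 0.24. The smallest p-values were those of Nfe2l1 and Nfe2l2, which control proteasome and antioxidant genes, at 1.31-fold and 1.25-fold, and of Atf1 at 1.16-fold. The call of Atf1 was lost without control replicate 2 or BMC replicate 2 and with library totals or limma, at an adjusted p of up to 0.0835 (edgeR or limma). Atf3, a stress-induced factor named after its values were seen, had the largest fold among the 7, 1.44 (edgeR adjusted p = 0.0238). Its call was lost in 9 of 19 settings, among them DESeq2 and the fits without control replicate 1 or 3 or BMC replicate 1 or 2, at an adjusted p of up to 0.226.

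Other amino acid transporters went in both directions, with 5 of 15 called higher and 7 lower. Slc7a11, the cystine-glutamate exchanger and a partner of Slc3a2, rose from 2.30 to 6.27 FPKM, a fold change of 2.86 (adjusted p = 3.96e-09, edgeR), more than any transporter among the 38. Slc15a3, an endolysosomal peptide and histidine transporter, rose 3.01-fold. Slc36a1, which exports amino acids from lysosomes, was 1.64-fold lower (edgeR adjusted p = 6.72e-05). Of 23 other amino acid and one-carbon enzymes 7 were called higher and 6 lower. Glul, which makes glutamine, was 1.52-fold lower (edgeR adjusted p = 5.25e-06), while Bcat1, a branched-chain transaminase, rose 1.21-fold.

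Of 25 other genes described as ATF4 targets 16 were called higher and 1 lower, with a median log2 change of 0.27. They include 12 aminoacyl-tRNA synthetases, 9 of which were called higher, with log2 changes from 0.01 to 0.71. Nars, which charges the tRNA of asparagine, rose 1.56-fold (edgeR adjusted p = 1.31e-07), and Cars, which charges that of cysteine, 1.63-fold. Sqstm1, the autophagy receptor p62, rose from 128 to 237 FPKM, a fold change of 1.93 (adjusted p = 2.10e-08, edgeR). Of 19 chaperones and other genes of the unfolded protein response in the endoplasmic reticulum 4 were called higher and 1 lower, and 14 were not called. Hyou1, an Hsp70-like chaperone, rose 1.23-fold and Syvn1, a ubiquitin ligase of the same compartment, 1.25-fold, while Sdf2l1 was 1.39-fold lower, from 182 to 125 FPKM (edgeR adjusted p = 7.69e-05). None of the genes in the 6 lists was called in BMC+LIPUS against BMC, where 0.108% of all genes tested were called.

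**Figure D4:**
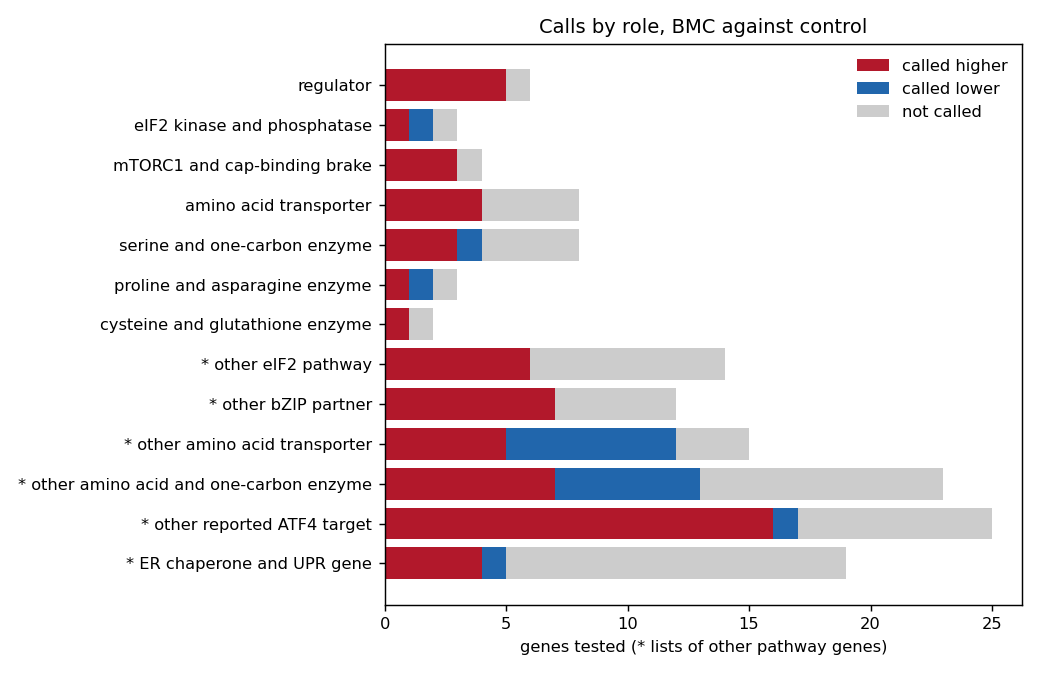
Number of tested genes (horizontal axis) called higher (red), called lower (blue) or not called (grey) in BMC against control, for each role with more than 1 tested member and, marked with an asterisk, for the 6 lists of other pathway genes. Regulators have 5 of 6 in red, the endoplasmic reticulum list 4 of 19.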

How the data were processed

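Polyadenylated RNA of 9 libraries was counted per gene. Per the submitters' processing notes, the authors worked on build GRCm39 of the mouse genome with HISAT2 2.0.1, cutadapt 1.9.1, DESeq2 and HTSeq 0.6.1. The annotation and the strand setting of the counting are not stated in those notes, so reads of overlapping or antisense genes and of near-identical copies cannot be told apart. The deposited table holds, per gene and library, raw read counts that the authors did not normalize and FPKM values that they rounded to 2 decimals. Of its 56691 lines, 2639 carry no gene name (0.0889% to 0.0976% of a library's counts) and were left out. Where a name was on several lines (77 names, Ddit3 among them), only the line of highest mean count was used. The table has 6 columns of 3 other libraries, which were not used.

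Genes whose mean reached 0.5 FPKM were tested with edgeR 4.0.16 (TMM factors, glmQLFit and glmQLFTest, 3 group means over 9 libraries), and p-values were adjusted by Benjamini-Hochberg over 12011 genes. Calls were made at an adjusted p under 0.05, and "rose" and "fell" are used of called genes. Fold changes are fitted values. SEs were derived from the F statistic and 95% intervals from the fit's degrees of freedom. The fit was tested on simulated counts for BMC against control. It recovered 67% of 100 genes changed 1.5-fold and 81% of 100 genes changed 2-fold, with 6 false calls. The simulation changed only 100 of 12011 genes at each fold, whereas 36% of genes were called in the data. Recovery and false calls in the reported fit may therefore differ. Levels are FPKM as mean ± SD (n = 3) or per library in the order of replicates. Alternatives were limma 3.58.1 on log2(FPKM + 1) and log2(FPKM + 0.1), no filter, a minimum of 5 FPKM, other scalings, DESeq2 1.42.0, fitting just the 6 libraries compared, the replicate number as a block, and leaving out each library. The members and all lists were chosen with earlier results of these data known. Examples from the other lists are the 3 called genes with the smallest p, except for an item that is not reported here. Of the 123 symbols in those lists, all were found, 12 through a RefSeq synonym. Promoter sequences are from RefSeq on GRCm38.p6, another build than the counts, so no other coordinates are given. No 2 libraries of a group were near copies, since their counts differed by at least 3.44 times the sampling variance.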

Additional observations from a re-analysis of the deposited data

How the results depend on the processing

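Over 19 other settings, 17 of the 22 members called in BMC against control and 20 of the 26 called in BMC+LIPUS against control kept their call wherever they were tested, and 0 reversed. Leaving out 1 library gave 16 to 19 members higher and 2 to 4 lower in BMC against control, while all genes called ranged from 3474 to 4521. In BMC+LIPUS against control it gave 20 to 23 higher and 3 to 4 lower, with 4304 to 5200 of all genes called. The median log2 change of the members in BMC+LIPUS against control was 0.30 with limma on log2(FPKM + 1) and 0.25 with a minimum of 5 FPKM. That minimum left 25 members, of which 16 were called higher and 2 lower, among 1771 genes higher and 1811 lower of 7231. With limma on log2(FPKM + 1), 16 members were higher and 4 lower in BMC against control, among 1221 genes higher and 2503 lower.

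The number of all genes called in BMC+LIPUS against BMC was unstable. It was 13 in the reported fit, 0 with limma at either pseudocount, 236 without a filter, 8 with a minimum of 5 FPKM, 88 with DESeq2, 2 with only the 6 libraries compared and 0 to 51 when 1 library was left out. It was 0 without BMC+LIPUS replicate 1 and 51 without BMC replicate 3. The cause was not tested. In every setting 0 members were called, but with so few of all genes called this is no result about the members.

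Replicate numbers, also in the replicate block, are those of the sample titles. Same-numbered libraries did not deviate together in every pair (correlations of -0.12 to 0.31 over 9 pairs, and -0.35 to 0.33 over 18 pairs with different numbers), so the title numbers were not taken to pair the samples. The deposited column names number the membrane libraries, but not the controls, otherwise than the titles. Pairing the controls by column number was not examined. With the replicate block 51 genes were called in BMC+LIPUS against BMC, and in BMC against control 19 members were higher and 3 lower, among 2160 genes higher and 2336 lower. The low counts of Trib3, Pycr1, Slc1a4 and Cth limit the precision of their changes.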

Other observations

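Sesn1 varied more between libraries of a membrane group than between groups. Slc5a3, the myo-inositol transporter, which is not among the 38 and was chosen after its values were seen, read 15.80, 9.49 and 11.63 FPKM in control, 11.01, 18.74 and 31.04 in BMC, and 25.70, 15.11 and 37.97 with BMC+LIPUS. Its highest libraries, replicate 3 of both membrane groups, are also those with the highest Sesn1. The member Slc6a9 was also highest in replicate 3 of BMC+LIPUS (2.84, 1.79 and 3.33 FPKM), but not in replicate 3 of BMC (1.64, 2.12 and 2.06). No relation between the genes was tested.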
